A study of Mus musculus with 6 samples.

Results

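The genes described here are those named for the proteins of the mitochondrial ribosome. They were chosen by name: every gene of the array table whose symbol begins with Mrpl or Mrps and a number, each read by the probe set that matches that gene alone and, where several did, by the one with the highest mean over all arrays. This gave 77 of the 19938 genes tested, with no filter on low values, 50 assigned to the large subunit and 27 to the small one. The 27 include Mrps36, whose protein is now regarded as a subunit of the alpha-ketoglutarate dehydrogenase complex of the citric acid cycle and not of the ribosome. Total RNA had been hybridised to 6 Affymetrix arrays. All samples were mouse pre-B cells of strain 129P2/OlaHsd transformed by BCR-ABL1, the fusion kinase of Philadelphia chromosome-positive leukaemia, with the genotype Ptpn6 +/fl, that is 1 unfloxed and 1 floxed allele of the gene for the phosphatase SHP-1. The control group (3 arrays) was transduced with PMIP-ERT2, the hormone-binding domain without a recombinase. The other group (3 arrays) was transduced with PMIP-CRE-ERT2, in which that domain holds Cre inactive until tamoxifen is given. Both were resistant to puromycin and both received 0.5 micromolar 4OH-Tamoxifen for 2 days. The series asks what Ptpn6 does in these cells. Because the control vector holds no Cre, an effect of Cre itself and an effect of recombining the floxed allele cannot be told apart.

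Mitochondria keep a small genome of their own, and its messenger RNAs, which encode core subunits of the respiratory chain and of ATP synthase, are translated by a ribosome that sits inside the organelle. The ribosomal RNAs are made there, but every protein of this ribosome is encoded in the nucleus, made in the cytosol and imported. The small subunit binds and decodes the messenger RNA, and the large subunit joins amino acids and releases the chain through a tunnel towards the inner membrane. Some of the proteins have counterparts in bacterial ribosomes and others exist only in mitochondria.

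Ptpn6 itself had log2 expression of 11.25, 11.39 and 11.39 in the ERT2 arrays and 11.36, 11.25 and 11.20 in the CRE-ERT2 arrays. The groups overlapped (log2 change -0.07, 95% confidence interval -0.24 to 0.10, limma adjusted p = 0.759), and whether its probe set lies in the floxed part is not known here, so the value checks no label. All changes below run from ERT2 to CRE-ERT2, as labelled. Array medians over all probe sets lay between 7.90 and 7.98. Of 13 pre-B cell markers measured, which had a median level of 12.57, 1 rose (the DNA polymerase gene Dntt, 0.48) and 2 fell (the recombinase gene Rag2, -0.53, and the interleukin receptor gene Il7r, -0.43), where 4.58% of all genes were called. Of the 13, 10 were above 0 (median change 0.09), where 61.1% of all genes were below 0. The groups did not overlap for 6 that were higher (46.2%) and 2 that were lower (15.4%), against 6.92% and 15.5% of all genes. None of 9 T and NK cell, 9 myeloid, 5 erythroid and 7 stromal markers passed with limma, and at an unadjusted p under 0.05 there was 1, a myeloid gene that was lower. Their median levels were 6.98, 7.09, 7.37 and 7.32, below the median of all genes (8.21). Single markers reached 9.38, 9.16, 8.14 and 8.88, so some lay above that median. The groups did not overlap for 2 myeloid markers, both lower (22.2%, against 15.5% of all genes), and for 0 of the others. In bulk RNA, fewer cells of a type and less RNA per cell cannot be told apart.

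Differences in messenger RNA for the mitochondrial ribosome were small, and few could be told from the spread between arrays. Of the 77 genes, 1 fell and 0 rose (limma adjusted p under 0.05), a share of 1.30%. Of all genes 4.58% were called, 2.28% lower and 2.30% higher. At an unadjusted p under 0.05, 22 of the 77 (28.6%) were lower and 0 higher, against 11.1% and 5.29% of all genes. That count of 22 became 10 without CRE-ERT2 array 2 and 10 without CRE-ERT2 array 3, where 7.58% and 7.66% of all genes were lower. It became 12 after a further quantile normalization and 13 with centred arrays, where 8.68% and 8.72% were. With array weights it became 26 and with a trended, robust variance 25, where 12% and 13% were. Without CRE-ERT2 array 1 it became 25 (11.3% of all genes), and with the dimmest genes left out 24 (16.2%). Over all alternatives it ran from 10 to 26. The gene that fell was Mrpl19, a large-subunit protein whose bacterial counterpart lies at the interface between the subunits. The other 76 did not pass. Every one of the 77 confidence intervals (95%) lay between -0.53 and 0.44 on the log2 scale, which is a ratio between 0.692 and 1.36. The median log2 change was -0.10, or 6.91% lower in the CRE-ERT2 arrays, against -0.03 over all genes. The standard error of a gene's change had a median of 0.08.

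**Figure D1:**
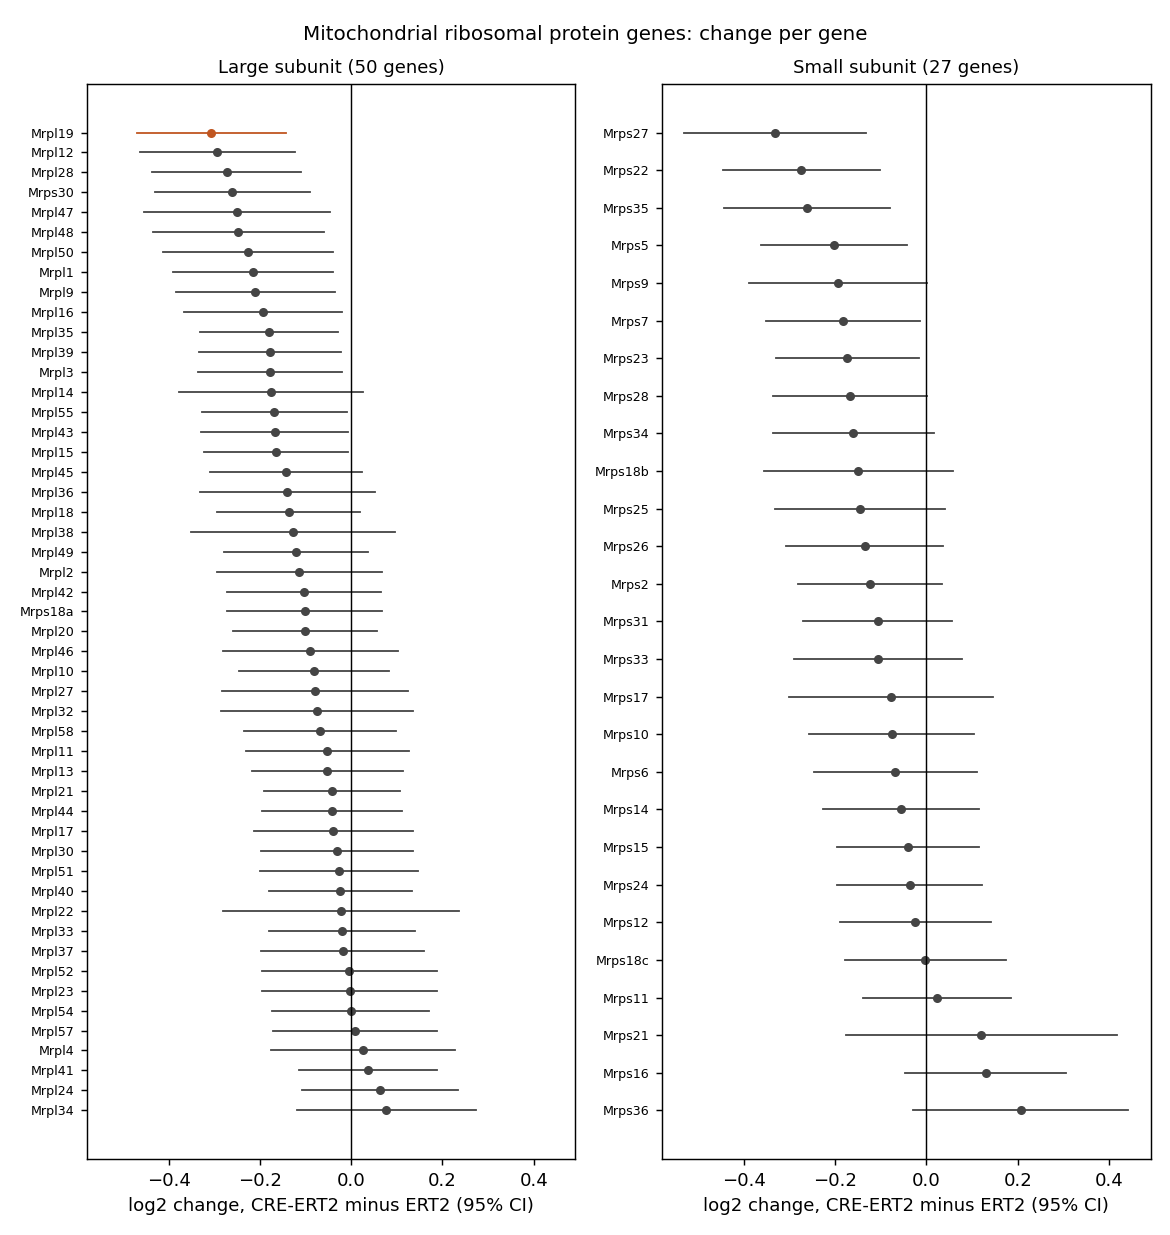
Log2 change of each of the 77 genes (x axis, CRE-ERT2 minus ERT2), with points for the estimate and lines for the 95% confidence interval, large subunit on the left and small on the right. Mrpl19, drawn in orange, was the only gene past the threshold, and most points lie left of 0.

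Mrpl19 read 11.81, 11.74 and 11.70 in the ERT2 arrays and 11.53, 11.37 and 11.43 in the CRE-ERT2 arrays. All 3 CRE-ERT2 values were below all 3 ERT2 values. The means were 11.75 ± 0.06 and 11.44 ± 0.08 (SD, n = 3 each), a log2 change of -0.31 with a standard error of 0.08 and a ratio of 0.809 (95% confidence interval 0.722 to 0.906, limma adjusted p = 0.0366). The two-sided exact permutation test gave p = 0.1, the smallest that 3 arrays against 3 allow. The call was close to the threshold. It was lost after a further quantile normalization (limma adjusted p = 0.0529) or centring of the arrays (0.0512), with all probe sets tested (0.159), with the replicate number as a block (0.0874), and when 1 array was left out, for ERT2 arrays 1 and 2 (0.127 and 0.0651) and for CRE-ERT2 arrays 2 and 3 (0.176 and 0.154). Over all alternatives its adjusted p ran from 0.00504 to 0.176. With the dimmest genes left out, 6 of the 77 passed, all lower (Mrpl12, Mrpl19, Mrpl28, Mrps22, Mrps27 and Mrps30), a share of 7.79% where 9.48% of all genes then passed (1260 of 13292). With a trended, robust variance 6 of the 77 passed, where 7.74% of all genes did. Without CRE-ERT2 array 2 or CRE-ERT2 array 3, 0 passed.

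The other 5 of the 6 most negative changes did not pass. Mrps27, a small-subunit protein found only in mitochondria, read 10.38, 10.74 and 10.55 in the ERT2 arrays and 10.29, 10.16 and 10.22 in the CRE-ERT2 arrays (log2 change -0.33, standard error 0.09, limma adjusted p = 0.0638). Its ERT2 values were spread widely, and replicate 1 lay near the CRE-ERT2 values. Mrpl12 forms the stalk that recruits translation factors and is also known to bind the mitochondrial RNA polymerase. It read 11.54, 11.36 and 11.57 in the ERT2 arrays and 11.25, 11.15 and 11.18 in the others (-0.29, adjusted p = 0.0559). Mrps22, a mitochondrion-specific protein mutated in an inherited respiratory chain disease, read 11.37, 11.33 and 11.20, against 11.12, 10.93 and 11.02 (-0.27, adjusted p = 0.0741). Mrpl28 read 10.69, 10.50 and 10.58, against 10.35, 10.31 and 10.29 (-0.27, adjusted p = 0.0626). Mrps35, another mitochondrion-specific protein of the small subunit, read 10.44, 10.20 and 10.21, against 10.10, 10.003 and 9.96 (-0.26, adjusted p = 0.110). In all 5 the groups did not overlap, with lower CRE-ERT2 values, which held for 15.5% of all genes and 31.3% of the 6646 brightest. Because the 5 were picked for their large changes, this adds no support.

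**Figure D2:**
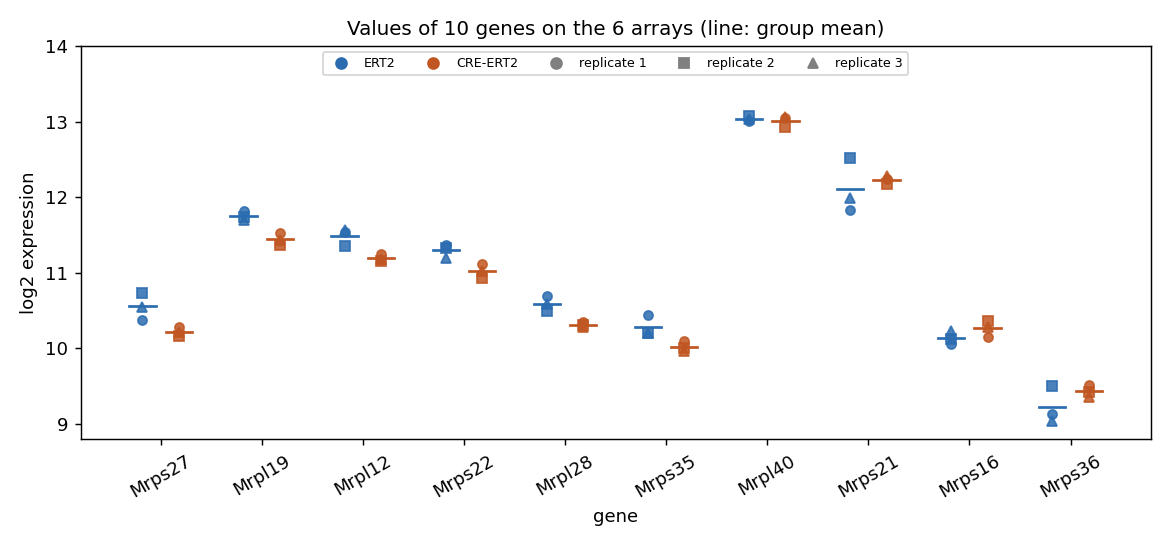
Log2 expression (y axis) of 10 genes on the 6 arrays, blue for ERT2 and orange for CRE-ERT2, with a marker shape per replicate and a line for the group mean. The 6 genes on the left have groups that do not overlap, while Mrpl40, Mrps21, Mrps16 and Mrps36 overlap.

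The stretches before the start sites of 5 genes are shown because these had the largest negative changes, or the largest positive one, among genes with an entry of their own in the RefSeq promoter table (build GRCm38.p6). Mrpl13, Mrpl15, Mrpl19, Mrpl38, Mrpl4, Mrpl54, Mrps28, Mrps34 and Mrps35 have no entry. Each is 150 bases up to the base before the start, 5′ to 3′ on the gene's strand, in lower case with motif letters in capitals.
Mrps27, chr13:99344636-99344785, plus strand: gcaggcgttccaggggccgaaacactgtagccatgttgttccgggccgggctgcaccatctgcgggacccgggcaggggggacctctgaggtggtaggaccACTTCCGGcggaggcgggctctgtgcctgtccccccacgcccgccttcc
Mrpl12, chr11:120484487-120484636, plus strand: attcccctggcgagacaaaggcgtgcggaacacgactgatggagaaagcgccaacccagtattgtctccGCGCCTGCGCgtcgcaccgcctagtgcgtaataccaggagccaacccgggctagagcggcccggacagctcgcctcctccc
Mrps22, chr9:98601680-98601829, minus strand: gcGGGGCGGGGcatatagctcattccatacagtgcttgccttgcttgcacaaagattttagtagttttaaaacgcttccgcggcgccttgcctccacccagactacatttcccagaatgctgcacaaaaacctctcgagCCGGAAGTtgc
Mrpl28, chr17:26123353-26123502, plus strand: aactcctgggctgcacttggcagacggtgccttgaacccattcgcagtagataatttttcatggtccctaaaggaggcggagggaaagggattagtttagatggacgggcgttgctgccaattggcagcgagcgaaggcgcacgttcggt
Mrps36, chr13:100744660-100744809, minus strand: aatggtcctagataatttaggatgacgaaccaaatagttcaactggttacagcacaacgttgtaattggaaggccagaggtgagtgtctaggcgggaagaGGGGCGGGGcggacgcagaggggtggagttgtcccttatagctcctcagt

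The capitals mark an ETS-type motif (CCGGAAGT, the kind bound by GABPA, an activator of nuclear genes for mitochondria) in Mrps27 and Mrps22, the core of the NRF1 motif (GCGCA, any base, then GCGC) in Mrpl12, and an SP1-type motif (GGGGCGGGG) in Mrps22 and Mrps36. The motifs were chosen after values were seen, both strands were searched, and matches of different motifs were counted separately and may overlap. In Mrpl28 none of the 7 motifs searched was in the printed stretch. Over the full windows of 300 bases (250 before the start and 50 from it), the 68 genes with an entry have 74 promoters, of which 17.6% hold the NRF1 core, 16.2% the ETS-type motif and 16.2% a YY1-type motif (AAGATGGC). Among promoters of all genes tested these shares were 6.91%, 5.41% and 3.18%, and among all 32851 promoters listed they were 4.6%, 3.89% and 2.75%. An E-box (CACGTG, bound by MYC among others) was in 9.46%, against 8.24% for genes tested and 7.15% for all, but 3 of these 7 promoters are overlapping entries of Mrpl2 that share a site. Counted by gene it was in 5 of 68 (7.35%), against 9.5% of genes tested. By gene the SP1-type motif was in 19.1%, against 18.7%, the NF-Y-type in 8.82%, against 9.46%, and the NRF1 core, ETS-type and YY1-type motifs in 19.1%, 17.6% and 17.6%, against 7.85%, 6.01% and 3.77%. Per promoter, the SP1-type motif was in 20.3%, against 16.4% and 11.4%. A NF-Y-type motif (CCAATNAG) was in 8.11%, against 8.10% and 7.10%, and a CRE (TGACGTCA) in 2.70%, against 2.37% and 1.79%. The median GC content was 58.5%, against 57.3% for genes tested. The 34 genes with an NRF1, ETS-type or YY1-type motif had a median change of -0.11 and the 34 with none of the 3 a median of -0.09.

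The small differences leaned one way. Of the 77 changes, 68 were below 0 and 9 above, where 61.1% of all genes were below 0. After a further quantile normalization 58 were below 0, and with centred arrays 63. For 26 of the 77 (33.8%) all CRE-ERT2 values were below all ERT2 values, where this held for 15.5% of all genes, and for 0 the reverse held (6.92% of all genes). Signal level moves with these shares. Of the 77 genes, 67 are among the 6646 brightest genes, whose median change was -0.08, with 70.7% below 0, 31.3% with non-overlapping groups and lower values, and 21.1% lower at an unadjusted p under 0.05. For the 67 these values were -0.11, 89.6%, 38.8% and 32.8%. For the 10 dimmer members the median was -0.03, and 0 of them had non-overlapping groups or an unadjusted p under 0.05 with limma. The part of signal level in the lean was not tested.

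**Figure D3:**
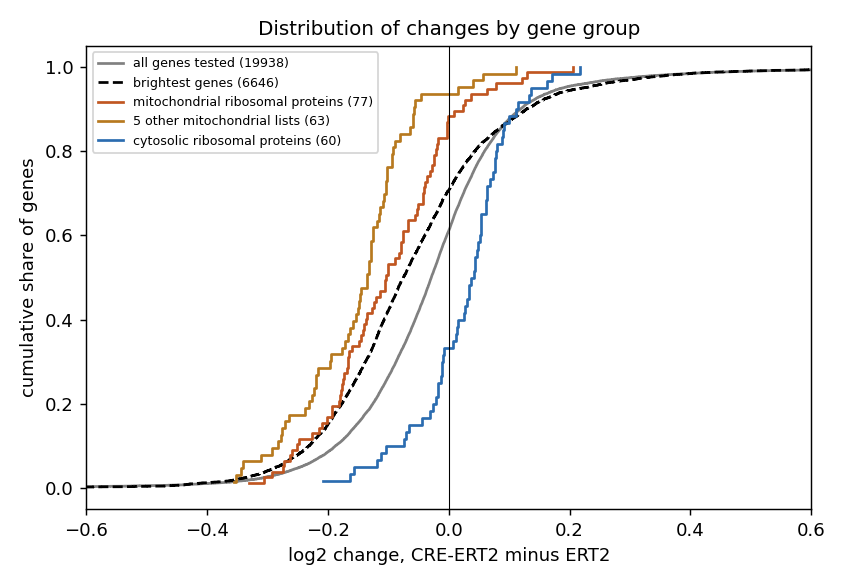
Cumulative share of genes (y axis) by log2 change (x axis, CRE-ERT2 minus ERT2; the axis is limited to 0.6 on either side) for all genes, the brightest genes, and 3 gene groups. The curve of the mitochondrial ribosomal proteins crosses its midpoint at -0.10 and that of the brightest genes at -0.08.

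The lean did not separate the groups array by array. The median deviation of the 77 genes from their own means was 0.00, 0.07 and 0.07 in ERT2 replicates 1 to 3 and 0.02, -0.07 and -0.11 in CRE-ERT2 replicates 1 to 3. CRE-ERT2 replicate 1 was thus above ERT2 replicate 1, and the groups overlapped. Counted by gene, 37, 9 and 15 of the 77 were below their own mean in the ERT2 arrays and 30, 63 and 69 in the CRE-ERT2 arrays. Without CRE-ERT2 replicate 1 the median change was -0.14, and without CRE-ERT2 replicate 3 it was -0.09. The same deviation over all genes tested was 0.04, -0.02 and 0.03 in the ERT2 arrays and -0.03, 0.00 and -0.02 in the CRE-ERT2 arrays, which is a different order of arrays.

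**Figure D4:**
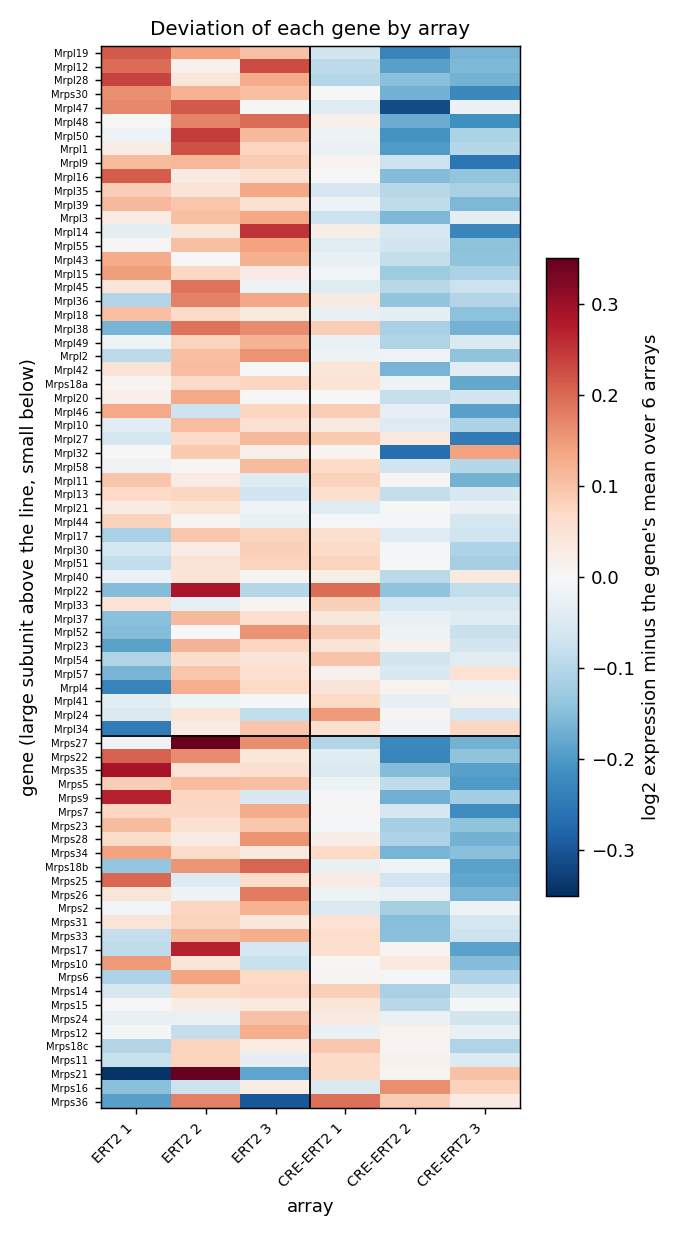
Log2 expression of each of the 77 genes minus its mean over the 6 arrays (colour, red above and blue below), with arrays in columns and genes in rows, large subunit above the line and small below. CRE-ERT2 replicates 2 and 3 are mostly blue, while ERT2 replicate 1 and CRE-ERT2 replicate 1 are mixed.

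**Figure D5:**
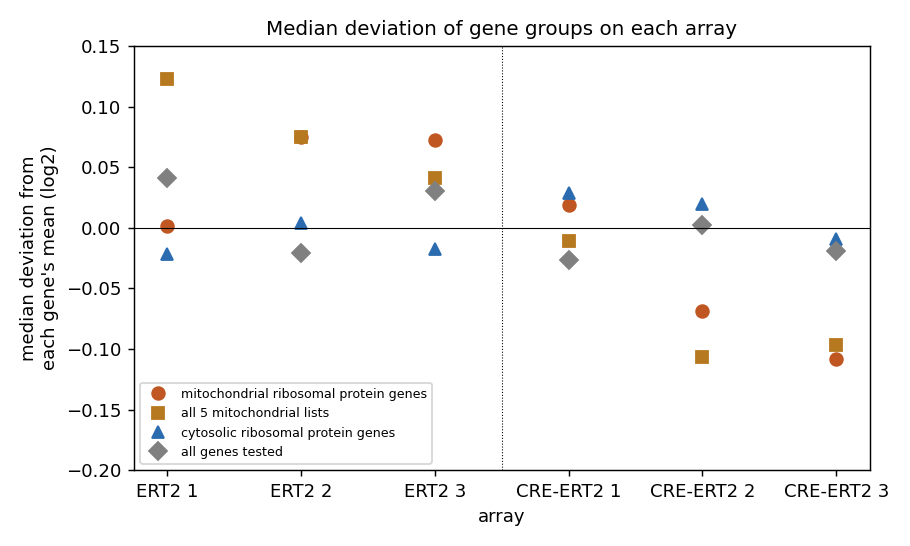
Median deviation of 4 gene groups from each gene's mean (y axis, log2) on each array (x axis). The mitochondrial ribosomal proteins were at -0.07 and -0.11 on CRE-ERT2 replicates 2 and 3, and at 0.02 and 0.00 on replicate 1 of CRE-ERT2 and ERT2.

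The subunits had like medians. In the large subunit 1 of 50 genes fell, 16 (32.0%) were lower and 0 higher at an unadjusted p under 0.05, and 45 were below 0 (median -0.10). In the small subunit 0 of 27 passed with limma, 6 (22.2%) were lower and 0 higher at an unadjusted p under 0.05, where 11.1% of all genes were lower, and 23 were below 0 (median -0.11, and -0.11 without Mrps36). Mrps18a and Mrps30 were counted in the large subunit, where their proteins sit despite their names. By ancestry, the medians were -0.11 for 30 large-subunit proteins with a bacterial counterpart, -0.10 for 20 found only in mitochondria, -0.06 for 16 small-subunit proteins with a counterpart and -0.15 for 11 without, Mrps36 among them.

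Within the large subunit, genes were also grouped by where their proteins sit, a grouping made after the values were seen. The stalk holds Mrpl12 with Mrpl10 (-0.08) and Mrpl11 (-0.05), which anchor it, and both of the latter overlapped between groups. Around the peptidyl transferase centre, where peptide bonds form, the median of 5 genes was -0.11, with Mrpl16 at -0.19 (standard error 0.08, limma adjusted p = 0.241), Mrpl3 at -0.18 (0.238) and Mrpl4 at 0.03 (0.949). At the exit site, where the new chain leaves towards the membrane, the 8 genes had a median of -0.04. Mrpl47 (-0.25, adjusted p = 0.184), Mrpl39 (-0.18, 0.228) and Mrpl45 (-0.14, 0.400), which in mammals helps tether the ribosome to the inner membrane, had groups that did not overlap. All 3 were lower, 37.5% of the 8, where this held for 15.5% of all genes and 31.3% of the 6646 brightest. The other 5 overlapped, among them Mrpl44 (-0.04) and Mrpl22 (-0.02). In the central protuberance, the crest of the large subunit, all 6 grouped genes were below 0, from Mrpl48 at -0.25 (adjusted p = 0.148) to Mrpl40 at -0.02. Below 0 were 61.1% of all genes and 70.7% of the 6646 brightest, and the 6 are not a full list of this part. Mrpl40 read 13.001, 13.07 and 13.03 in the ERT2 arrays and 13.05, 12.93 and 13.05 in the CRE-ERT2 arrays, the highest signal of the 77. Probe signals do not rank different genes by abundance.

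In the small subunit the head, which moves during translocation, had 5 grouped genes, all below 0, where 61.1% of all genes were. They ran from Mrps9 at -0.19 (limma adjusted p = 0.311) and Mrps7 at -0.18 (0.261) to Mrps14 at -0.06 (0.840). Of the 5, 1 (20%) was lower at an unadjusted p under 0.05, against 11.1% of all genes and 21.1% of the 6646 brightest. The groups did not overlap for 1 (20%), against 15.5% and 31.3%. The 7 genes grouped under body and platform had a median close to 0 and ranged from Mrps17 at -0.08 to Mrps16 at 0.13. That grouping was made after the values were seen and is not a full list of these parts. Mrps5 and Mrps12, given next, are not among the 7, so no contrast with the head can be drawn. Mrps5, at the entry path of the messenger RNA, read 11.53, 11.56 and 11.55 in the ERT2 arrays and 11.43, 11.36 and 11.25 in the others. These groups did not overlap, and the change was -0.20 (adjusted p = 0.171). Mrps12, a protein of the decoding centre, had the lowest signal of the 77 and read 8.38, 8.31 and 8.51, against 8.37, 8.40 and 8.36 (-0.02). Mutations in many of these genes cause combined respiratory chain deficiency in humans. For 12 such genes, listed after the values were seen, 0 passed with limma, 5 (41.7%) were lower and 0 higher at an unadjusted p under 0.05, where 11.1% of all genes were lower, and the median was -0.16. Among them, Mrps34 was at -0.16, Mrps2 at -0.12 and Mrpl44 at -0.04.

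The largest positive changes did not pass either. Mrps36 read 9.14, 9.51 and 9.03 in the ERT2 arrays and 9.52, 9.42 and 9.36 in the CRE-ERT2 arrays, so the groups overlapped through ERT2 replicate 2 (log2 change 0.21, 95% confidence interval -0.03 to 0.44, limma adjusted p = 0.388). Without ERT2 replicate 2 the change was 0.35 and passed (adjusted p = 0.0372). Mrps16, a protein with a bacterial counterpart, read 10.06, 10.13 and 10.23, against 10.15, 10.37 and 10.29 (0.13, adjusted p = 0.493). Mrps21 read 11.83, 12.52 and 11.99, against 12.24, 12.18 and 12.27 (0.12, adjusted p = 0.776), with an ERT2 spread of 0.36 (SD, n = 3) that enclosed the CRE-ERT2 values. Mrpl34 (0.08), Mrpl24 (0.06) and Mrpl41 (0.04) completed the 6 largest positive values. Mrpl34 and Mrps21 had the other sign without ERT2 replicate 1 (-0.025 and -0.022). With 1 array left out, 21 of the 77 changes took the other sign in at least 1 of the 6 fits, the largest of these in size being Mrps21.

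For 8 of the 77 genes a second probe set allowed a check. For Mrps5 the second read a change of -0.25 beside -0.20, for Mrps33 -0.12 beside -0.11, for Mrps36 0.23 beside 0.21 and for Mrpl27 -0.07 beside -0.08. Those pairs were alike. For Mrpl47 the second, dimmer probe set (mean 7.98 against 10.90) read -0.01 beside -0.25, and for Mrpl51 it read -0.14 beside -0.03. The Mrpl41 pair read 0.00 and 0.04. The Mrpl23 pair read -0.0031 and -0.0046. Some of these genes have processed pseudogenes, and which copy a probe set reads is not known here.

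Other genes of mitochondrial gene expression were also mostly below 0. They were read from 5 lists with 63 measured genes, of which 4 encode ribosomal proteins known under other names and the rest build, serve or regulate the mitochondrial ribosome and genome. Of the 63, 3 fell and 0 rose (limma adjusted p under 0.05), a share of 4.76% that is close to the 4.58% of all genes called. The median change was -0.14, with 59 (93.7%) below 0. At an unadjusted p under 0.05, 22 (34.9%) were lower and 0 higher, against 11.1% and 5.29% of all genes, and 21.1% lower among the 6646 brightest genes. Their median deviation was 0.12, 0.07 and 0.04 in the ERT2 arrays and -0.01, -0.11 and -0.10 in the CRE-ERT2 arrays, without overlap. The 3 were Fastkd2, an RNA-binding protein needed to assemble the large subunit (-0.36, adjusted p = 0.0401), Guf1, the mitochondrial relative of a bacterial elongation factor that moves ribosomes back (-0.34, 0.0358), and Myc, a transcription factor that drives growth genes (-0.35, 0.0304). In all 3 the groups did not overlap, which adds no support because the calls rest on the same values. Groups without overlap and with lower values were found for 36.5% of the 63, against 15.5% of all genes and 31.3% of the 6646 brightest. The call of Fastkd2 was lost with all probe sets tested (adjusted p = 0.223) and when 1 array was left out, for ERT2 arrays 1 and 2 (0.164 and 0.0592) and for CRE-ERT2 arrays 2 and 3 (0.151 and 0.197). Myc lost its call under the same settings (0.178, 0.129, 0.0605, 0.0796 and 0.176). Guf1 kept its call in 1 of the 6 fits that leave out an array, the one without ERT2 replicate 3, and lost it under quantile normalization (0.0529), the replicate block (0.0765) and all probe sets (0.192).

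By list, 1 of 24 assembly and RNA modification genes fell (median -0.13), and Rcc1l, another assembly factor, was at -0.28 (limma adjusted p = 0.0564). Of 15 translation factors 1 (6.67%) fell, all 15 were below 0, 9 (60.0%) were lower at an unadjusted p under 0.05 and the median was -0.19. Over all genes 4.58% were called, 61.1% were below 0 and 11.1% were lower at an unadjusted p under 0.05. Lrpprc, which stabilises mitochondrial messenger RNA, read 11.86, 11.60 and 11.53 in the ERT2 arrays and 11.38, 11.34 and 11.24 in the others, without overlap (-0.34, adjusted p = 0.0536). Of 10 genes for mitochondrial DNA upkeep and transcription 0 passed with limma and 2 were lower at an unadjusted p under 0.05, the exonuclease gene Mgme1 (-0.28, adjusted p = 0.0571) and the helicase gene Twnk (-0.22, 0.119), with a median of -0.12. Of 10 regulators of nuclear genes for mitochondria 1 (Myc) fell, the coactivator gene Pprc1 was at -0.20 (adjusted p = 0.216), and the median was -0.12. Of 4 ribosomal proteins known under other names 0 passed with limma and 1 was lower at an unadjusted p under 0.05. These included Ptcd3 (-0.22, adjusted p = 0.235), which binds RNA, and Dap3 (-0.15, 0.393), which binds GTP.

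The 60 measured genes named for proteins of the cytosolic ribosome, which translates nuclear messages, were mostly on the other side of 0. They were taken by symbol, so genes of similar name, such as Rpl7l1 and Rpl39l, are among them. With limma 0 passed, where 4.58% of all genes did. At an unadjusted p under 0.05, 1 (1.67%) was lower and 2 (3.33%) were higher, against 11.1% and 5.29% of all genes. Of the 60, 40 were above 0, where 61.1% of all genes were below 0, and the median change was 0.04. The groups did not overlap for 4 that were lower (6.67%) and 9 that were higher (15%), against 15.5% and 6.92% of all genes. Their median deviation was -0.02, 0.00 and -0.02 in the ERT2 arrays and 0.03, 0.02 and -0.01 in the CRE-ERT2 arrays. The cytosolic set had a median level of 13.25, against 10.72 for the mitochondrial one. The 2 sets thus also differ in signal level. The difference between the 2 ribosomes was not tested.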

How the data were processed

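The authors deposited log2 signals for 35556 probe sets on each of 6 arrays. The submitters' processing notes list RMA and Partek (version 6.5) with no further detail, and the log2 scale was read from the range of values. RMA compresses changes of dim probes. Signal over background and scan dates are not known here. The platform annotation gives 1 gene for 21789 probe sets, and the rest were left out. By Entrez identifier 21698 matched the RefSeq gene table, which changed 0 symbols. Groups were compared with two-sided moderated tests from limma (version 3.58.1, run in R 4.3.3), with group as the only term and Benjamini-Hochberg adjustment over 19938 genes at 0.05. The labels do not say whether replicates were separate cultures, so p-values measure only the spread among these arrays, and that may be technical. No array was a duplicate (correlations 0.991 to 0.996). The number of arrays limits the precision. The fit was tested on simulated data with noise drawn separately for each gene. That cannot show how it behaves where genes vary together, as the members do.

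The members, gene lists and role groups were chosen with earlier results of these data known. The rule named every member called, the 6 largest changes each way, the highest and lowest signal, members with several probe sets, up to 4 called genes of each mitochondrial list (filled to 2 by smallest p) and Ptpn6. Members named for their place in the ribosome or as disease genes, and the markers named, were chosen after their values were seen. Alternatives were quantile normalization, centring, leaving out dim genes, other probe set rules, a trended variance, array weights, a replicate block and leaving out each array. Taking the dimmest probe set per gene was added after seeing the data.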

Additional observations from a re-analysis of the deposited data

How the results depend on the processing

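The median change of the 77 genes stayed between -0.06 and -0.14 under every alternative run, and moved by less than the spread of array medians (SD 0.07). The number called was 1 as deposited. It was 0 with quantile normalization, centred arrays, all probe sets or the replicate block, 3 with array weights, 6 with the dimmest genes left out and 6 with a trended, robust variance, where 9.48% and 7.74% of all genes passed, and from 0 to 3 when 1 array was left out. In the 63 other mitochondrial genes it went from 3 to 0 with all probe sets, 8 with array weights, 9 with dim genes left out and 10 with the trended variance, and from 0 to 7 when 1 array was left out. Over all genes 914 became 298 of 35556 probe sets, 1544 with the trended variance, 589 with the replicate block and from 453 to 979 when 1 array was left out. The call split was 543 higher and 349 lower after quantile normalization, against 459 and 455. Fewer or more features tested changes the adjustment, and for other settings the cause was not tested. Of the 77 changes, 10 went from below to above 0 after quantile normalization, Mrpl40 (0.011), Mrpl51 (0.027) and Mrpl23 (0.028) among them, and 5 with centred arrays, Mrpl23 (0.016) among them. With array weights 2 went below 0. With 1 array left out, 21 changed sign in at least 1 fit. Among these the change ranged from -0.025 to 0.15 for Mrpl34, from -0.022 to 0.32 for Mrps21, from -0.046 to 0.017 for Mrpl40, from -0.072 to 0.033 for Mrps12, from -0.098 to 0.055 for Mrpl23, from -0.14 to 0.023 for Mrpl27, from -0.076 to 0.024 for Mrpl51, from -0.084 to 0.096 for Mrpl4, from -0.11 to 0.018 for Mrpl11, from -0.14 to 0.036 for Mrps17 and from -0.13 to 0.12 for Mrpl22. Replicate numbers were not taken to pair the samples: deviations of same-numbered arrays correlated at -0.11, -0.37 and -0.07. Among the CRE-ERT2 arrays, 0 of 3 ERT2 arrays correlated best with the one of their own number. Because deviations within a group sum to 0, that count follows from the negative values and adds nothing to them. What signal over background limits is not known here.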

Other observations

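One probe set matches both Mrpl53, a large-subunit gene, and Ccdc142, and so is not among the 77 genes. It read 9.31 in the ERT2 arrays and 9.17 in the CRE-ERT2 arrays (group means, with overlapping groups), a log2 change of -0.14.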
